A study of Sus scrofa with 12 samples.

Results

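DAAM1 with DHRS7, LOC100626512 with YPEL2, TECTB with LOC100626929, and LOC102165594 with LOC100514231 are 4 pairs of pig genes whose partners lie near each other in the genome but are not annotated as members of the same family. These 8 genes, of 31694 in the deposited mRNA tables, were followed in the liver of 3 Jinhua (JH) and 3 Landrace (LD) pigs. They were selected on the JH against LD difference in these same livers, as neighbours that differed together, so their breed difference is given as a description with no test. The members entered the fit across all genes, but test results are read only for genes that the choice did not use. All 8 were lower in JH, with every JH value below every LD value. Of all 12993 tested genes, 23.4% had JH and LD values that did not overlap, in either direction, and nothing is read from the count of 8 because the choice used this contrast.

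All pigs were uncastrated males of 70 days of age, and liver was the tissue sampled. Each pig gave 1 mRNA library and 1 small RNA library, named here JH1 to JH3 and LD1 to LD3. No treatment or engineered allele separates the groups, so the comparison is of whole breeds and of everything that differed between these animals. In whole liver, fewer cells of a type and less RNA per cell cannot be told apart.

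Genes that sit side by side can share open chromatin, an enhancer or a promoter region, and transcription that runs past the end of a gene can reach the next. Tandem copies also share sequence, so that short reads may be assigned to the wrong copy. Partners from unlike families do not share sequence in that way, but the families of the pair of non-coding members, and any sequence they share with their partners, were not analysed here.

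Names and gene order were taken from the RefSeq annotation of Sscrofa11.1. The deposited values were made on an earlier pig assembly, so no positions are given. In that annotation LOC100626512 is GDPD1, which encodes a phosphodiesterase acting on lysophospholipids, and LOC100514231 is GSTM3, a mu-class glutathione transferase. LOC100626929 is annotated as a pseudogene and LOC102165594 as a long non-coding RNA. GDPD1 and YPEL2 are direct neighbours, as are TECTB and LOC100626929. Between LOC102165594 and GSTM3 lie 2 annotated genes. EPS8L3 did not exceed 0.0772 RPKM (mapped reads scaled to gene length and library total) in any library, and LOC100739052 had no matched value. Between DAAM1 and DHRS7 lie 8 annotated genes. Of these, LOC102167425 was seen in LD1 only, at 1.27 RPKM, CCDC175 and RTN1 stayed below that level, and LOC100622535 was listed at 0 in every library. GPR135, L3HYPDH, JKAMP and PCNX4 were not matched to a row and were not analysed here. The deposited values hold a row named PCNXL4. Whether PCNXL4 is PCNX4 was not settled here, so it was not placed between the partners. None of the genes between partners that had a matched value passed the filter for testing, which was at least 0.5 RPKM in at least 3 libraries. The filter could not be applied to the unmatched genes, so expressed genes between partners may have been missed. Each pair was adjacent among the tested genes that could be placed.

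The library totals recovered from the RPKM values ran from 5744908 reads in JH1 to 7914514 in LD3, and each library had 16080 to 17078 genes above 0. The hepatocyte product ALB was at 27533 to 33599 RPKM in JH and 37742 to 53893 in LD, ranges that did not overlap. Among the 6 hepatocyte markers, ALB included, limma called 0 different. A gene was called at a Benjamini-Hochberg adjusted p under 0.05 and an absolute log2 fold change over 1, which 2.39% of tested genes passed. The hepatocyte markers, ALB included, summed to 56878 to 69182 RPKM in JH and 70581 to 84851 in LD. All 7 stellate cell and fibroblast markers were lower on average in JH, and COL1A1, COL1A2 and COL3A1 were called. Their sum was 59.6 to 90.2 RPKM in JH and 175 to 338 in LD. The bile duct sum was 9.23 to 19.8 in JH and 21.1 to 52.8 in LD, with EPCAM called and LOC100626722 listed at 0 in every library. The erythroid sum was 90.1 to 122 in JH and 213 to 393 in LD, with HBB called. Endothelial sums (160 to 265 in JH, 209 to 267 in LD), macrophage sums (301 to 769 and 449 to 504) and lymphocyte sums (9.72 to 27.2 and 11.2 to 13.3) overlapped, with no call and with CD163 listed at 0. These lists moved in the same direction as the 8 genes where their sums did not overlap, and their part in the results was not tested. An exact 0 is not proof of absence in these tables, since AHCYL1, which most cells use, is listed at 0 in all 6 libraries.

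DAAM1 encodes a formin that builds actin filaments and takes part in planar cell polarity. Its RPKM was 0.594, 0.40 and 1.08 in JH1 to JH3, and 2.97, 3.22 and 2.39 in LD1 to LD3. The JH libraries held 11, 10 and 27 reads of DAAM1 and the LD libraries 68, 82 and 61. JH3 was the highest JH pig, and it was still below LD3, the lowest LD pig, by a ratio of 2.21. The mean was 0.692 ± 0.352 RPKM in JH and 2.86 ± 0.426 in LD (SD, n = 3 each). The log2 difference, JH minus LD on log2(RPKM + 0.1), was -1.98 with a standard error of 0.39.

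Its partner DHRS7 encodes a short-chain dehydrogenase/reductase of the endoplasmic reticulum. DHRS7 was at 6.66, 8.19 and 13.7 RPKM in JH1 to JH3 and at 25.6, 29.1 and 32.4 in LD1 to LD3. These rest on 59, 98 and 164 reads in JH and 280, 354 and 395 in LD. JH3 was again the highest JH pig, and the lowest LD pig exceeded it by a ratio of 1.86, the narrowest gap of the 8 genes. The means were 9.53 ± 3.73 and 29.0 ± 3.40 RPKM (SD, n = 3 each), and the log2 difference was -1.66 with a standard error of 0.30.

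LOC100626512 (GDPD1) was the least abundant of the protein-coding members. It was listed at 0 in JH1 and JH3 and at 0.188 RPKM in JH2, which is 1 read, while LD1 to LD3 were at 1.03, 1.48 and 1.47 RPKM, from 5, 8 and 8 reads. All 3 LD pigs were above all 3 JH pigs, but 3 reads, the number that a count of 0 allows, would equal 0.762 RPKM in JH1 and 0.566 in JH3. Summed over pigs and scaled to library totals, the LD to JH ratio of reads was 19.5, with an exact 95% interval of 3.13 to 805. That interval covers counting error only, and it rests on the lowest read counts that fit the RPKM. The log2 difference of -3.31 (standard error 0.63) depends on the value added before the logarithm.

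YPEL2, of a small family of zinc-binding proteins named after the yippee protein of flies, is the partner of GDPD1. Its RPKM was 1.49, 1.14 and 2.38 in JH1 to JH3 and 8.04, 7.42 and 5.61 in LD1 to LD3. The reads were 35, 36 and 75 in JH and 233, 239 and 181 in LD. The highest JH pig was JH3 and the lowest LD pig LD3, with a ratio of 2.36 between them. The means were 1.67 ± 0.638 and 7.02 ± 1.27 RPKM (SD, n = 3 each), with a log2 difference of -2.05 and a standard error of 0.32.

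TECTB encodes beta-tectorin, a component of the tectorial membrane of the inner ear. In these livers TECTB was measured at 1.21, 3.13 and 4.59 RPKM in JH1 to JH3 and 16.5, 15.1 and 31.8 RPKM in LD1 to LD3. The values rest on 8, 28 and 41 reads in JH and 135, 138 and 291 in LD. LD3 stood above the other LD pigs, and JH1 below the other JH pigs. The means were 2.97 ± 1.70 and 21.1 ± 9.28 RPKM (SD, n = 3 each), and the log2 difference was -2.89 with a standard error of 0.48.

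LOC100626929, the pseudogene beside TECTB, was at 0.0637, 0.425 and 0.473 RPKM in JH1 to JH3. It was at 2.47, 1.71 and 5.09 RPKM in LD1 to LD3, from 48, 37 and 110 reads against 1, 9 and 10 in JH. LD3 was the highest LD pig and JH1 the lowest JH pig, as for TECTB. The means were 0.320 ± 0.224 and 3.09 ± 1.77 RPKM (SD, n = 3 each), and the log2 difference was -2.98 with a standard error of 0.59. Its annotated span in RefSeq overlaps that of ACSL5, a long-chain acyl-CoA synthetase. Spans of DAAM1 and LOC102167425, of DHRS7 and LOC102157689, and of TECTB and LOC110256754 overlap as well. The strand setting of the read counting is not given in the sources used here, so reads of overlapping genes may not be told apart. ACSL5 itself was at 5.83 to 6.89 RPKM in JH and 6.15 to 8.97 in LD, ranges that overlap.

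LOC102165594, the long non-coding RNA, was listed at 0 in JH1 and was at 0.129 RPKM in JH2 and in JH3, which is 1 read each. LD1 to LD3 were at 4.08, 2.40 and 1.01 RPKM, from 29, 19 and 8 reads. LD1 was thus 4.04 times LD3, the widest spread among LD pigs of any member. The ratio of summed reads, LD to JH per library total, was 26.0 with an exact 95% interval of 6.86 to 220 for counting error. The fitted log2 difference was -3.70 with a standard error of 0.63, and 3 reads in JH1 would equal 0.521 RPKM. These reads too are the lowest counts that fit the RPKM.

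LOC100514231 (GSTM3) conjugates glutathione to reactive compounds and was the most abundant member. Its RPKM was 23.4, 33.0 and 19.3 in JH1 to JH3 and 131, 148 and 116 in LD1 to LD3. The reads were 281, 534 and 312 in JH and 1942, 2438 and 1914 in LD. The lowest LD pig was 3.51 times the highest JH pig. The means were 25.3 ± 7.01 and 131.7 ± 16.1 RPKM (SD, n = 3 each), and the log2 difference was -2.41 with a standard error of 0.27, the smallest error of the 8. Mu-class transferases are a family of similar genes, so reads may be split among copies and the level is uncertain to that extent.

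**Figure D1:**
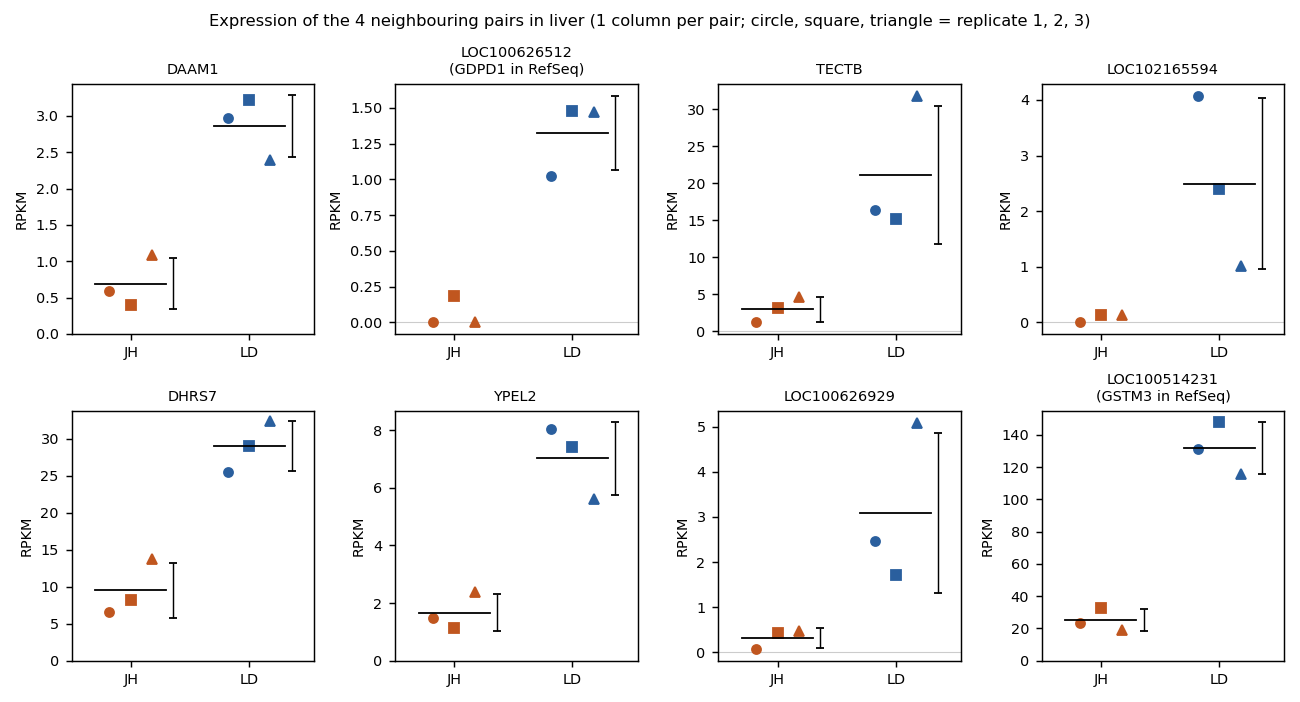
RPKM of each member in each of the 6 livers, with the partners of a pair stacked in a column and JH in orange and LD in blue. Horizontal lines are means and vertical bars are 1 SD of 3 pigs, left out for groups with a pig listed at 0. In every panel all JH points lie below all LD points.

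Of the 8 genes, LOC100626512, LOC100626929 and LOC102165594 passed the filter on low values only through the 3 LD libraries, DAAM1 passed in 5 libraries and the other 4 in all 6. The 18S ribosomal gene RN18S ranged from 1570 RPKM in JH2 to 62257 in JH3. JH3 was also the highest JH pig for DAAM1, DHRS7, YPEL2, TECTB and LOC100626929, and the lowest for GSTM3. Among LD pigs RN18S was highest in LD3, at 20160 RPKM. LD3 was the highest LD pig for DHRS7, TECTB and LOC100626929, but the lowest for DAAM1, YPEL2, LOC102165594 and GSTM3. The part of RN18S in these orders was not tested.

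Within a breed, the order of the pigs was the same for both partners in the TECTB pair alone. There it ran JH3, JH2, JH1 and LD3, LD1, LD2 for both genes. DAAM1 ran JH3, JH1, JH2 and LD2, LD1, LD3 where DHRS7 ran JH3, JH2, JH1 and LD3, LD2, LD1. YPEL2 was highest in LD1, the pig in which GDPD1 was lowest among LD. GSTM3 was highest in LD2 and LOC102165594 in LD1, though LD3 was lowest among LD for both.

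The ratio of partners, taken on RPKM within each pig, was compared between breeds as a description. DHRS7 was 11.2 to 20.5 times DAAM1 in JH and 8.61 to 13.5 times in LD, and these ranges overlap. TECTB was 7.36 to 18.9 times LOC100626929 in JH and 6.26 to 8.83 times in LD, which overlap as well. YPEL2 was 6.05 times GDPD1 in JH2, the JH pig in which GDPD1 was above 0, and 3.81 to 7.84 times in LD. GSTM3 was 150 and 257 times LOC102165594 in JH3 and JH2, each on a single read of the latter, and 32.2 to 115 times in LD.

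**Figure D2:**
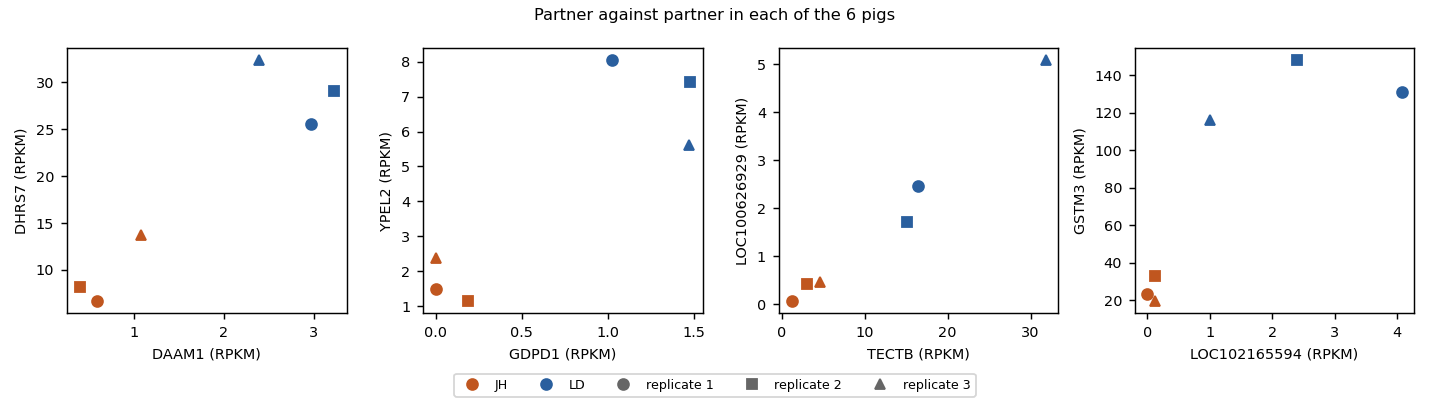
RPKM of the partners plotted against each other, with 1 point per pig (orange JH, blue LD, and a marker shape for each replicate number). The JH pigs lie at the lower left of each panel, and the order of the LD pigs is shared by both axes in the TECTB panel.

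The genes around the pairs did not enter the choice and could be tested. For each pair the 5 nearest tested genes on each side were taken, 40 genes in all, from the limma fit over 12993 tested genes. Nearest here means nearest among the 78.9% of tested genes that the RefSeq order placed. Tested genes without a RefSeq match were skipped, so a gene beside a pair may be missing from the 40. Of all tested genes 1.36% were called lower in JH, of the 2.39% called in either direction. Around the pairs limma called 0 of these 40 placed genes, which does not cover the skipped genes. At an unadjusted p under 0.05, 3 were lower and 4 higher in JH. The log2 difference was below 0 for 19 and above 0 for 21, with a median of 0.04, the same as the median over all tested genes. JH and LD values did not overlap for 12 of the 40, beside 23.4% of all tested genes.

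The nearest tested gene before DAAM1 was KIAA0586, a gene needed for cilia that is the sixth annotated gene from it, with a log2 difference of -0.38 and an adjusted p of 0.629 in limma. The nearest tested gene after DHRS7, the phosphatase gene PPM1A, was at 17.7 to 18.6 RPKM in JH and 15.3 to 19.4 in LD, a log2 difference of 0.08 (limma adjusted p 0.879). The 10 genes around this pair had a median of 0.30, and their lowest adjusted p was 0.218.

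SMG8, of the nonsense-mediated decay machinery, precedes GDPD1 with a log2 difference of 0.35 (limma adjusted p 0.483). The helicase gene DHX40 follows YPEL2 with 0.07 (limma adjusted p 0.921). The median of the 10 genes was 0.11 and their lowest adjusted p was 0.145. Non-overlapping ranges were seen for 5 of them, in both directions.

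ADRA2A, the alpha-2A adrenergic receptor and the nearest placed tested gene before TECTB, had the lowest adjusted p of the 40. ADRA2A lies further from TECTB than LOC100514074, which is 6 annotated genes before TECTB and was listed at 0 in every library. The RPKM of ADRA2A was 0.386, 0.381 and 0.764 in JH1 to JH3 and 2.91, 1.31 and 1.49 in LD1 to LD3. All JH pigs were below all LD pigs, with a log2 difference of -1.69 and a standard error of 0.44, but the limma adjusted p of 0.0939 did not pass the threshold. ACSL5 on the other side was at -0.20 (limma adjusted p 0.718). GPAM, on the same chromosome as TECTB in RefSeq, was matched to no row. GPAT in the deposited values was matched to no RefSeq gene. It was at 10.4 to 20.8 RPKM in JH and 59.8 to 95.3 in LD, and limma called it. Whether GPAT is GPAM was not settled here, so GPAT could not be placed and is not counted around the pair. With 10 tested genes on each side of every pair, 80 in all, limma called 1 gene. It was LOC102163250 near TECTB, at 0.754, 0.558 and 0.420 RPKM in JH and 2.90, 3.84 and 4.51 in LD, a log2 difference of -2.51 with a standard error of 0.34 and a limma adjusted p of 0.00822.

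Around LOC102165594 and GSTM3 the differences were small. CSF1, the macrophage growth factor, had a log2 difference of -0.04 (limma adjusted p 0.966) and the G protein subunit gene GNAI3 one of 0.44 (limma adjusted p 0.371). The 10 genes lay between -0.31 and 0.44, and 1 of them had ranges that did not overlap.

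**Figure D3:**
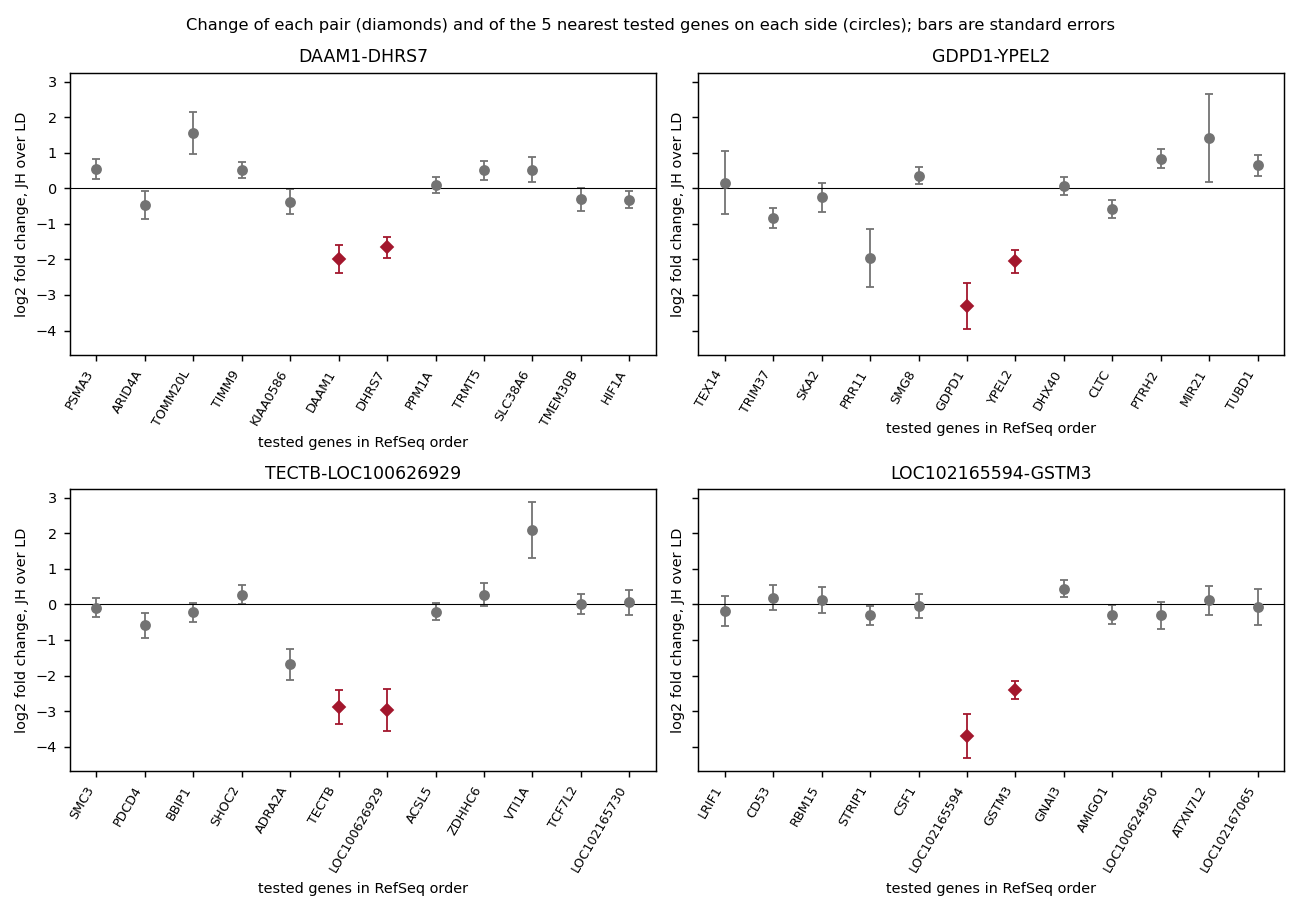
Log2 fold change, JH over LD, of each pair (red diamonds) and of the 5 nearest placed tested genes on each side (grey circles). Genes are in RefSeq order, with bars for the standard error from limma. The pairs lie between -1.66 and -3.70 and the 40 flanking genes between -1.96 and 2.09.

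The RefSeq order placed 10247 of the 12993 tested genes (78.9%) and gave 10226 neighbouring tested pairs. In 0.0978% of them, 10 pairs, both genes were called and lower in JH, and the 4 pairs described here are among these because the choice used that contrast. The other 6 were FETUB with HRG, CDHR5 with SCT, CYP2A19 with LOC102165015, LOC102165015 with CYP2B22, DAAM2 with MOCS1, and LOC100515741 with UGT2B31. Both genes were called higher in JH in 12 pairs, and the directions were opposite in 5. These counts move with the library set, and without LD1 or without LD2 the pairs both lower in JH numbered 3.

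**Figure D4:**
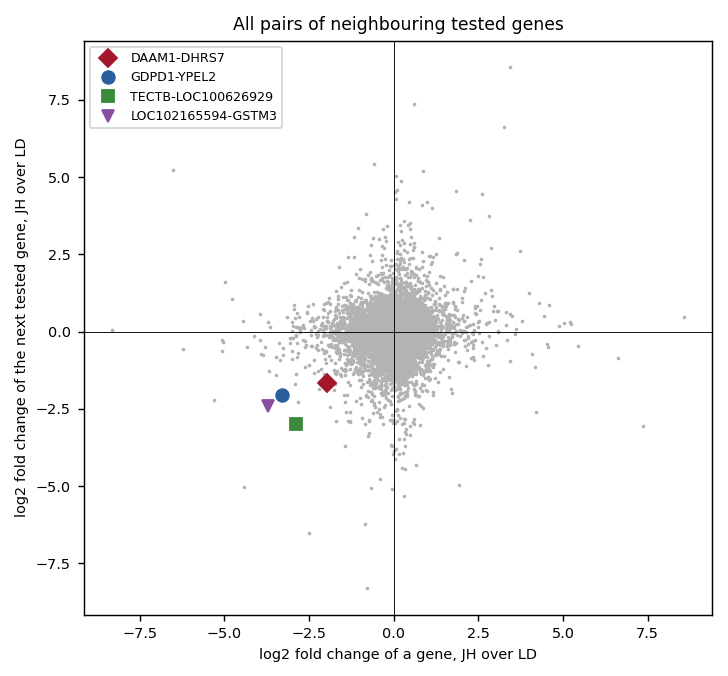
Log2 fold change, JH over LD, of each tested gene against that of the next tested gene in RefSeq order, for 10226 pairs (grey points). The 4 pairs, shown as coloured markers, lie at the lower left, with both values below -1.

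Genes of the families that the members belong to were examined to see whether a whole family differed with its member. In 7 lists, 61 genes were tested and 3 were called, beside the 2.39% of all tested genes.

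Among 6 tested formins other than DAAM1, 5 were lower on average in JH, the median log2 difference was -0.39, and 1 was called. It was DAAM2, the closest relative of DAAM1, at 0.711, 1.03 and 0.894 RPKM in JH1 to JH3 and 2.85, 3.62 and 3.02 in LD1 to LD3. DAAM2 fell by 1.74 on the log2 scale (standard error 0.30, limma adjusted p 0.0235), and the list gave 0 calls without the filter, without JH1 and without any single LD library. Of 14 tested planar cell polarity genes, 9 were lower on average in JH with a median of -0.61, and the called gene went the other way. CELSR1, a cadherin of that pathway, was at 3.57 to 3.73 RPKM in JH and 0.636 to 0.749 in LD, a log2 difference of 2.25 (standard error 0.28, limma adjusted p 0.00654).

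Of 22 tested short-chain dehydrogenases other than DHRS7, 9 were below 0, the median was 0.12 and 1 was called. DHRS4, which reduces retinal and other carbonyls in peroxisomes, was higher in JH, at 322 to 809 RPKM against 85.5 to 161 in LD. Its log2 difference was 2.07 (standard error 0.38, limma adjusted p 0.0306), opposite in sign to that of DHRS7, and the list gave 0 calls with the replicate number as a block, without the filter on low values, without LD1 and without LD2.

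YPEL1 (-0.62) and YPEL5 (-0.19), the tested relatives of YPEL2, had overlapping ranges and limma adjusted p values of 0.598 and 0.771. Of 5 tested zona pellucida domain genes, the family of TECTB, 0 were called by limma, with a median of -0.70. DMBT1 had a log2 difference of -1.40 (limma adjusted p 0.182) and TGFBR3 one of -0.91 (limma adjusted p 0.244). Among 10 tested glutathione transferases other than GSTM3, limma called 0, the median was 0.06, and 4 were below 0. GSTO2 (2.46, limma adjusted p 0.117) and GSTO1 (1.17, limma adjusted p 0.0963) were higher on average in JH, where GSTM3 was lower. The relatives of GDPD1, GDPD2 (0.67) and GDE1 (0.16), were not called, with limma adjusted p values of 0.741 and 0.791.

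The likeness of profiles was measured as the root mean square distance between log2(RPKM + 0.1) values over the 6 libraries, each gene centred on its mean. It was ranked over 12992 other tested genes and is a description that shares the breed difference with the choice. TECTB and LOC100626929 were each other's most alike gene, at a distance of 0.197. LOC100621472 followed for both, at 0.334 and 0.452, then TRPM3 for TECTB and GPAT for LOC100626929. GPAT was matched to no RefSeq gene, so whether it lies near this pair was not settled here. With 0.1 added, the other partners were less alike. DHRS7 was 33rd for DAAM1 and DAAM1 99th for DHRS7. YPEL2 ranked 172 for GDPD1 and GDPD1 ranked 3647 for YPEL2. GSTM3 ranked 44 for LOC102165594, and the reverse rank was 1184.

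DAAM1 and YPEL2, which belong to different pairs, were each other's most alike gene at 0.107, followed for both by LOC102158140 and LOC100738871. ANTXR1, TTBK2 and LOC100625556 were most alike to DHRS7. ADCYAP1, MYO16 and LOC102161562 were most alike to GDPD1, and like it were listed at 0 in JH1 and JH3. NR0B1, SYT17 and FAM81A were most alike to LOC102165594. MIOX, LOC100739295 (WDR86) and ENTPD8 were most alike to GSTM3, at 0.191, 0.195 and 0.201. With 1 added in place of 0.1, the most alike gene was another for every member. For TECTB it was GPAT, at 0.271. The partner of TECTB then ranked 14 and that of LOC100626929 ranked 256. The order of the pairs turned as well, with distances of 0.301 for DAAM1 and DHRS7, 0.413 for GDPD1 and YPEL2, 0.538 for TECTB and LOC100626929, and 0.559 for LOC102165594 and GSTM3.

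The small RNA libraries gave a second readout for 1 neighbourhood. MIR21, the gene of the abundant microRNA miR-21, is the fourth annotated gene after YPEL2. The mature ssc-miR-21 was at 14828, 25594 and 15367 RPM (reads scaled to the clean reads of the library) in JH1 to JH3 and 22443, 23156 and 26741 in LD1 to LD3, in the same unit. JH2 lay within the LD range, so the breeds overlapped. The means were 18596 ± 6066 and 24113 ± 2303 (SD, n = 3 each). The log2 difference was -0.42 with a standard error of 0.25, and ssc-miR-21 was not called (limma adjusted p 0.284), where 9.54% of 241 tested miRNAs were. The difference was -0.11 after quantile normalization and -0.02 after median scaling of the small RNA libraries. The log2 difference of YPEL2 itself was -2.05.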

How the data were processed

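Liver mRNA and small RNA were sequenced from 3 JH and 3 LD pigs. Single reads of 50 bp were filtered by the authors and placed on an earlier assembly than Sscrofa11.1 by TopHat2 2.0.13 (version from the submitters' processing notes), and gene totals from gfold became the RPKM that the authors deposited. For miRNA the authors deposited RPM, reads scaled to the clean reads of each library. The annotation release and strand setting are not given in the sources used here. The members and the gene lists were chosen with earlier results of these data known, and the lists of glutathione transferases and GDPD genes were added after the data were seen.

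Because the files hold RPKM, limma 3.58.1 (R 4.3.3) replaced the read-based test of the study. Genes needed at least 0.5 RPKM in 3 or more libraries and entered as log2(RPKM + 0.1), and miRNAs needed at least 1 RPM in 3 or more (241 of 411) and entered as log2(RPM + 0.5). The variance prior followed the mean level, and p-values were adjusted by Benjamini-Hochberg. Adding 0.1 understates differences of low genes. Reads per member were recovered by finding library totals and gene lengths that made the RPKM whole reads within 0.02 read. The smallest such length was taken for each gene, so the reads are the lowest counts that fit. A longer fitting length would give more reads, and the intervals and the values of 3 reads rest on this choice. The recovered totals give the depth, and ratio intervals are exact and cover counting error only. Fits were checked on simulated data. The p-values set each breed difference against the spread of the samples within breeds. Labels do not say how the pigs were related, so the pigs may not be independent samples of their breeds.

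Named genes were the members, the nearest tested gene on each side, called genes nearby, annotated genes between partners, the 3 most alike profiles of each member, and in each family list the called genes or otherwise the pair with the largest differences. Of 30371 RefSeq genes (Sscrofa11.1), which gave names and order, 18654 were matched to a value. Alternatives were other pseudocounts, no filter, quantile and median scaling, a replicate block and leaving out each library. No sequences are shown.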

Additional observations from a re-analysis of the deposited data

How the results depend on the processing

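The 8 members stayed lower in JH in every alternative, and nothing is read from this. They were chosen on this contrast, with every JH value below every LD value. Another pseudocount, no filter or a library left out could therefore not change the sign. Adding 1 gave log2 differences of -1.20 (DAAM1), -1.13 (LOC100626512), -1.60 (YPEL2), -1.56 (LOC100626929) and -1.59 (LOC102165594), and adding 0.01 gave -5.61 (LOC100626512) and -5.22 (LOC102165594), since the added value sets the floor of low genes. Leaving out each library in turn gave -2.32 to -1.70 for DAAM1, -1.95 to -1.44 for DHRS7, -3.82 to -3.05 for LOC100626512, -2.33 to -1.83 for YPEL2, -3.29 to -2.37 for TECTB, -3.32 to -2.40 for LOC100626929, -4.22 to -3.26 for LOC102165594 and -2.62 to -2.23 for LOC100514231.

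The 310 genes called (177 lower in JH) became 199 (116 lower) with 0.01 added and 200 without the filter. They ran from 79 (38 lower) to 406 (230 lower) with a library left out, with 79 without LD1, 114 without LD2, 149 without LD3, 150 without JH2 and 164 without JH1. Neighbouring pairs both lower in JH numbered 5 without the filter, 17 after quantile normalization and 3 to 11 with a library left out (3 without LD1 or LD2, 4 without LD3, 6 without JH2). The placed genes around the pairs gave 0 calls in each alternative with 5 genes a side, and 1 around TECTB with 10. Without the filter the formins and the short-chain dehydrogenases gave 0 calls, and with a library left out 0 to 1 and 0 to 2 (2 without JH3). After quantile normalization the short-chain dehydrogenases gave 2 and the glutathione transferases 1, the latter also after median scaling. The zona pellucida list gave 0 to 1, with 1 without LD3. The cause of these moves was not tested. The log2 difference of ssc-miR-21 was -0.67 to -0.28 with a library left out, -0.11 after quantile normalization and -0.02 after median scaling, both chosen after the data were seen.

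JH and LD share replicate numbers. Deviations from the breed means correlated across genes at -0.02, 0.05 and 0.18 for pairs 1 to 3. Not every pig correlated best with its own number, but JH3 with LD3 was the highest of all. In both breeds RN18S was highest in number 3 (62257 RPKM in JH3, 20160 in LD3) and lowest in number 2 (1570 and 2108). The median log2 level of tested genes was 2.36, 2.42 and 2.10 in JH1 to JH3 and 2.35, 2.39 and 2.10 in LD1 to LD3. Whether libraries of the same number were handled together was not tested, and the main fit did not use the numbers. With the replicate block 253 genes were called (139 lower) and the short-chain dehydrogenases gave 0. With 0 to 29 reads per library, the values of LOC100626512 and LOC102165594 are the least precise.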
